A study of Mus musculus with 16 samples.

Results

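The transcriptomes of LLC1 tumour cells from mice given the MYC inhibitor MYCi975 were compared with those from mice given vehicle, 4 libraries against 4, out of 16 libraries in the study. LLC1 is a mouse Lewis lung carcinoma line. Mice carrying LLC1 tumours were treated for 16 days with DMSO (Vehicle), MYCi975 at 50 mg/kg, TMP195 at 50 mg/kg, which inhibits class IIa histone deacetylases, or both compounds (Combo, doses not stated), and tumour cells were enriched before RNA extraction. The sources used here do not give the route, the dosing schedule or the way of enrichment. The libraries were chosen by their labels alone. The genes compared were the 15715 of 24334 whose value lay at least 1 above the lowest value of the table in at least 4 of the 16 libraries. Nothing in the labels says that libraries of 1 group are from different mice, so p-values speak only of the spread among these libraries, part of which may be technical. All values are the deposited variance-stabilised counts, close to log2, so a difference of 1 is about a doubling for well expressed genes and understates the change of weakly expressed ones. The depth per library is unknown.

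MYC is a transcription factor that binds DNA as a dimer with MAX, at a short sequence called the E-box, and drives genes of ribosome production, nucleotide synthesis, glycolysis and cell division. Proteins of the MXD family and MNT compete with MYC for MAX and repress many of the same genes. MYCi975 binds the MYC protein, disturbs its pairing with MAX and promotes its degradation, so an effect on MYC protein need not show in Myc mRNA. Other stress programmes of tumour cells that bear on metabolism are NRF2, which drives glutathione and NADPH production, ATF4, which drives amino acid uptake and serine synthesis, and HIF, which drives glycolysis under hypoxia.

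No gene was called in MYCi975 against Vehicle by limma at an adjusted p under 0.05 (0 of 15715, 0%), and the smallest adjusted p was 0.999. Single genes at an unadjusted p under 0.05 were as often higher as lower. Several lists nevertheless had medians below 0. In the MYCi975 libraries the members of the glycolysis list had a median difference of -0.21, those of the NRF2 and glutathione list -0.22, those of the cholesterol synthesis list -0.22 and those of the integrated stress response list -0.18, against a median of -0.01 over all genes tested. Known direct MYC target genes had a median of -0.08. The glycolysis and NRF2 lists also had negative medians, -0.25 and -0.16, when MYCi975 was added to TMP195, a comparison made of 8 other libraries, whereas the cholesterol, DNA replication, mitosis and MYC target lists had medians between 0.02 and 0.03 there (MYC targets -0.04 without the libraries numbered 4). Interferon genes had a positive median of 0.20 that was -0.03 without 1 MYCi975 library.

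At an unadjusted p under 0.05, 238 genes were higher in MYCi975 (1.51%) and 238 were lower (1.51%), 476 in all or 3.03% of the genes tested. In 124 genes all 4 MYCi975 libraries lay above all 4 Vehicle libraries (0.789%), and in 111 genes all lay below (0.706%). Where the group makes no difference, 4 against 4 lie apart with a probability of 0.0286, both directions together. The shares found do not reach that level, nor does 3.03% reach the threshold of 0.05. A difference had a median standard error (SE) of 0.157, and its 95% confidence interval reached 0.332 to each side.

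Several libraries stood apart irrespective of treatment. On the first principal component of the 16 libraries (21.2% of the variance) replicate 4 of Vehicle and of MYCi975 scored 33.2 and 26.6, and TMP195 replicate 4 scored 32.0, against at most 5.90 in the others. On the second (14.2%) MYCi975 replicate 3 scored -29.1 and TMP195 replicate 1 scored -28.7, against -13.9 or more in the others. Among the 8 MYCi975 and Vehicle libraries rank correlations lay between 0.951 and 0.966 (median 0.958 within and 0.959 between groups). The closest pair still differed by 0.202 per gene in mean absolute terms. Genes at the lowest value numbered 1985 to 2696 in the MYCi975 and 2334 to 3130 in the Vehicle libraries. Many of the values below are therefore also given without MYCi975 replicate 3 or the libraries numbered 4, and for Combo minus TMP195 without TMP195 replicate 1.

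The label of enriched tumour cells was set beside marker genes. The keratin gene Krt18 ranged from 10.67 to 11.18 over the 8 libraries and the mesenchymal filament gene Vim from 16.69 to 17.54, whereas Cdh1 and Epcam were below the filter. Of the leukocyte markers, Adgre1 and C1qa to C1qc of macrophages and Ly6g of neutrophils were below the filter, as were most T cell and B cell markers (2 of 14 and 1 of 7 passed). However, 7 of 12 macrophage and monocyte, 6 of 9 neutrophil, 9 of 10 dendritic cell and MHC class II and 7 of 9 pan-leukocyte markers passed. Of fibroblast and pericyte markers 10 of 12 passed, with list means of 10.66 in Vehicle and 10.63 in MYCi975. Pan-leukocyte genes were detected at low values. Ptprc, which encodes CD45, had values of 6.66, 7.11, 6.39 and 7.52 in Vehicle and 6.55, 5.87, 8.04 and 7.16 in MYCi975, replicates 1 to 4 in that order here and throughout. The highest value was in MYCi975 replicate 3, and the groups overlapped (-0.01, SE 0.43). In such bulk samples, fewer cells of a type and less RNA per cell cannot be told apart.

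Promoter sequences are shown here for genes of 3 lists that the results turn on: glycolysis, MYC targets and the integrated stress response. Each stretch is from the RefSeq promoter window (250 bases before to 50 after a gene's start, GRCm38.p6), written 5′ to 3′ on the strand of the gene. Capitals mark 1 match to the E-box CACGTG, the site that MYC and MAX can bind. The glycolysis and lactate export genes with a match were Ldha, Slc16a1, Pfkfb3 and Pfkm, 4 of 23 with a window (17.4%), and 3 are shown.
Ldha (chr7:46845632-46845691, plus strand): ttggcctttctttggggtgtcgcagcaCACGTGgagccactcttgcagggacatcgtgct
Slc16a1 (chr3:104638437-104638496, plus strand): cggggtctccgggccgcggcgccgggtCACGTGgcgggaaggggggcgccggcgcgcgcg
Pfkm (chr15:98092426-98092485, plus strand): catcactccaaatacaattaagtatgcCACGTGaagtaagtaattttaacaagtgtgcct
Among MYC target genes 12 of 42 with a window held the E-box (28.6%), and 3 are shown.
Cdk4 (chr10:127063336-127063395, plus strand): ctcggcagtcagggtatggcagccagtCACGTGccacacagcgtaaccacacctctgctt
Nme1 (chr11:93968258-93968317, minus strand): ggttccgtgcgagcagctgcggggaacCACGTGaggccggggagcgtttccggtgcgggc
Apex1 (chr14:50924898-50924957, plus strand): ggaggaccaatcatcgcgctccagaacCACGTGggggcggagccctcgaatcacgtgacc

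An E-box, which reads the same on both strands, was in 1168 of the 10235 tested genes with a window (11.4%), and in 7.15% of all 32851 windows of the table. The 12 MYC target genes with an E-box had a median difference of -0.05 in MYCi975, and the 30 without had -0.10. Of the 4 glycolysis genes with a match, Ldha (-0.32), Slc16a1 (-0.30) and Pfkm (-0.14) had lower means in MYCi975 and Pfkfb3 (0.07) a higher one. Cdk4, whose window held the match too, was at 0.07. Over the 10235 genes with a window the median was -0.031 in the 1168 with an E-box and -0.025 in the 9067 without. These medians cover only part of the 15715 genes tested, since the others had no window.

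For the integrated stress response, capitals mark 1 match to TGATGNAA or its reverse complement, the amino acid response element to which ATF4 and its partners can bind. It was in 9 of 24 genes with a window (37.5%), in 291 of the 10235 tested genes with a window (2.84%) and in 3.97% of all windows.
Slc7a11 (chr3:50443645-50443706, minus strand): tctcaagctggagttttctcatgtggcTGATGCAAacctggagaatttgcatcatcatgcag
Asns (chr6:7693198-7693259, minus strand): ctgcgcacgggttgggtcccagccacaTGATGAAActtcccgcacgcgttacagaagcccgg
Slc1a4 (chr11:20332683-20332744, minus strand): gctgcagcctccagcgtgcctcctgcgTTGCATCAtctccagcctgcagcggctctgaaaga
Chac1 (chr2:119351022-119351083, plus strand): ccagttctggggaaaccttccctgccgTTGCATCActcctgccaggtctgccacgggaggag

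**Figure D1:**
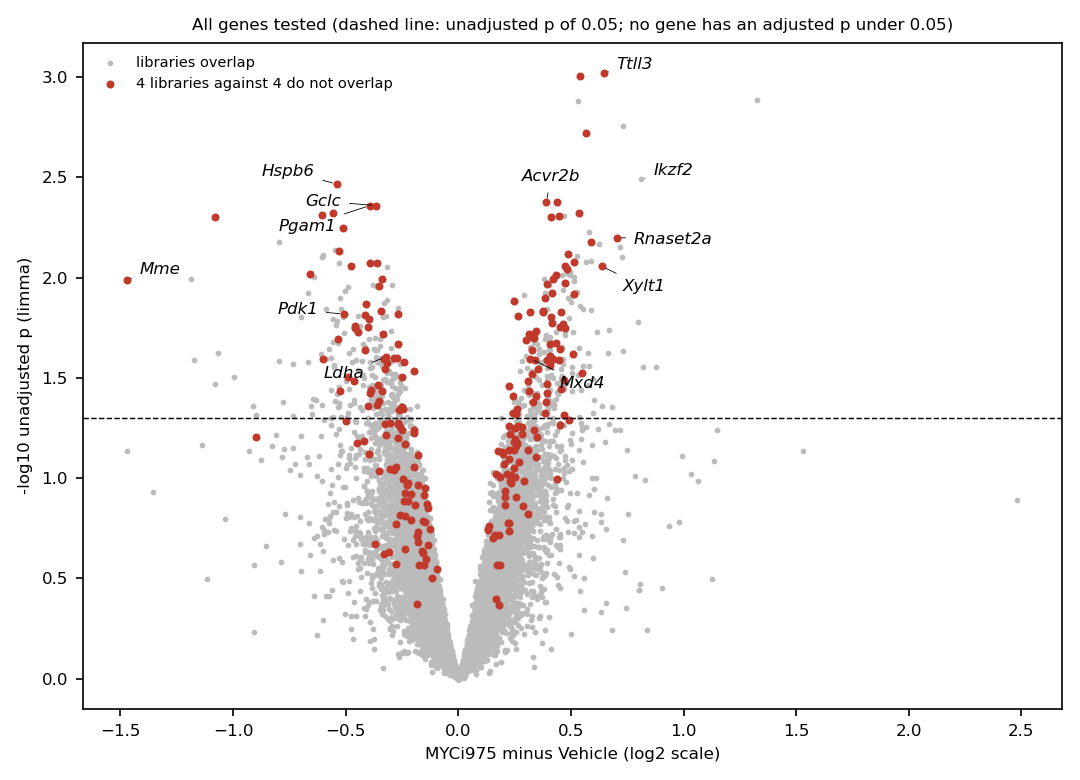
Each point is 1 gene tested, with the difference of MYCi975 minus Vehicle (log2 scale) across and the -log10 of the unadjusted limma p upward; red points are genes whose 4 MYCi975 libraries all lie above or all below the 4 Vehicle libraries. Both sides hold 238 genes above the dashed line, and Ttll3 is among the highest points.

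The target gene and its network came first. Myc (ENSMUSG00000022346.18) had values of 12.06, 11.77, 11.71 and 11.46 in Vehicle and 11.90, 11.36, 11.64 and 11.26 in MYCi975. The groups overlapped over most of their range. The difference was -0.21 (SE 0.21, 95% interval -0.65 to 0.23), with a two-sided exact permutation p of 0.314 where 0.0286 is the smallest that 4 against 4 can give. Since the compound acts on the protein, Myc mRNA does not check the labels. Of 17 tested genes of the network, 12 were lower and 5 higher, with a median of -0.07.

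Mxd4 (ENSMUSG00000037235.14), which encodes a MAX partner that antagonises MYC, was the 1 network gene of 17 tested whose groups did not overlap. Over all genes tested 0.789% lay wholly above Vehicle and 0.706% wholly below. Mxd4 had values of 10.72, 10.53, 10.73 and 10.49 in Vehicle and 10.73, 10.90, 11.01 and 11.11 in MYCi975. All MYCi975 libraries lay above Vehicle, replicate 1 only just. The difference was 0.32 (SE 0.13, unadjusted limma p 0.0254), it was 0.30 without MYCi975 replicate 3, and 0.22 without the libraries numbered 4. Added to TMP195, MYCi975 went with a difference of 0.24 in Mxd4 (unadjusted p 0.0817). Max, Mxi1 and Mnt, chosen for their role, differed by less than their SE, by -0.05, -0.07 and -0.00. In Combo minus TMP195 they differed by 0.03, -0.35 (unadjusted limma p 0.0371) and -0.18, so Mxi1 and Mnt went the other way from Mxd4 there. The 17 tested network genes ranged from -0.26 to 0.32 in MYCi975 minus Vehicle.

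MYC target genes were mostly slightly lower. Of 50 tested, 39 were lower and 11 higher in MYCi975 (over all genes tested 52.9% were lower), with a median of -0.08 and differences from -0.33 to 0.29. Leaving out 1 library moved the median between -0.11 (MYCi975 replicate 2) and -0.05 (Vehicle replicate 2). No target had groups that did not overlap, and 2 were lower at an unadjusted p under 0.05 (1.51% of all genes tested). These were Mrto4, a ribosome assembly factor, at -0.27 (SE 0.11, p 0.0218), and Cdc25a, a phosphatase that activates cyclin-dependent kinases, at -0.23 (SE 0.11, p 0.0497). Mrto4 had values of 10.15, 10.12, 9.95 and 9.86 in Vehicle and 9.80, 9.86, 9.60 and 9.74 in MYCi975. The groups met at Vehicle replicate 4 and MYCi975 replicate 2. Textbook targets differed by less than their SE: Odc1, the first enzyme of polyamine synthesis, differed by -0.17 (SE 0.18), Ncl, which encodes nucleolin, by -0.08 (SE 0.20) and Cdk4, a kinase of the early cell cycle, by 0.07 (SE 0.15). The directions of Ncl and Cdk4 turned when single libraries were left out.

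Of the other programmes that MYC is known to drive, ribosome biogenesis, polyamine synthesis and nucleotide synthesis had medians from -0.12 to -0.03. Of 40 ribosome biogenesis factors 23 were lower and 17 higher (median -0.03), with none at an unadjusted p under 0.05. Of 12 polyamine genes 9 were lower (median -0.12), among them Dohh, an enzyme that makes hypusine, at -0.28 (SE 0.12, unadjusted p 0.0301). Of 25 genes of purine and pyrimidine synthesis 23 were lower (median -0.11), led by Prps2 (-0.35, SE 0.18), which makes the sugar phosphate of nucleotides. That median was -0.21 without MYCi975 replicate 2 and -0.05 without Vehicle replicate 2, and without the libraries numbered 4 it was -0.04 with 18 of 25 lower. The polyamine median was -0.07 without MYCi975 replicate 3. Of 8 tested genes that MYC is known to repress, 2 were higher and 6 lower (median -0.12, and -0.04 without Vehicle replicate 2). Cdkn1a, which encodes the cell cycle inhibitor p21, differed by -0.07 (SE 0.27).

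**Figure D2:**
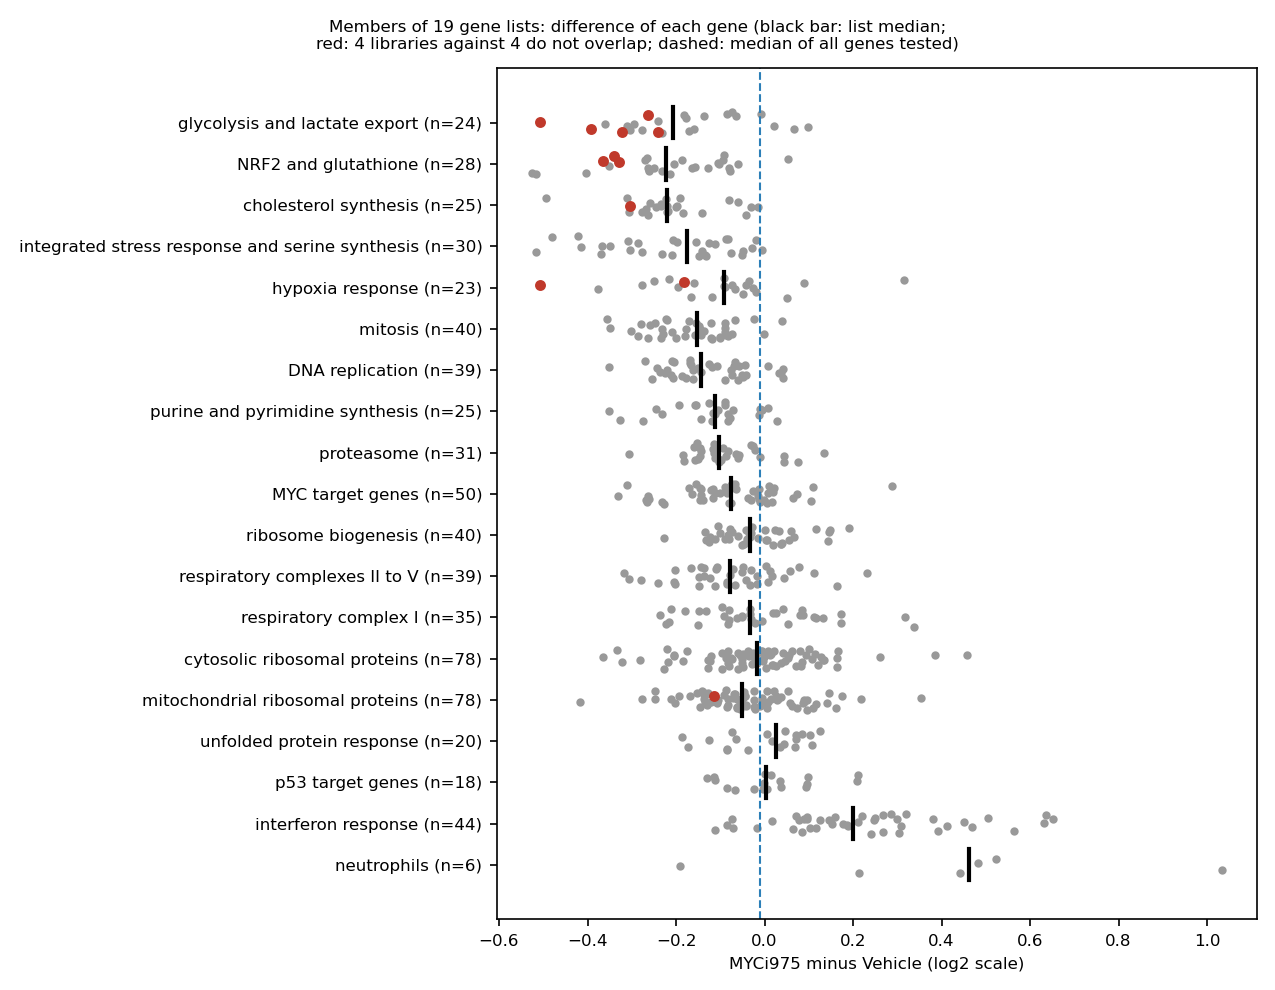
Each point is 1 tested gene of a list, placed by its difference of MYCi975 minus Vehicle (log2 scale), with the list median as a black bar and the median of all genes tested as a dashed line. Red points are genes whose groups did not overlap, and the glycolysis row has the most of them, 5 of 24. Over all genes tested 0.706% lay wholly below Vehicle.

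Of the 46 lists, glycolysis had the largest share of tested genes with separated groups. Of 24 tested genes 21 were lower and 3 higher in MYCi975, 5 were lower at an unadjusted p under 0.05 and 5 had groups that did not overlap, Pdk1, Pgam1, Ldha, Pkm and Tpi1. The background for each of these counts over all genes is given above (1.51% and 0.706%). The mean of the list was 11.67, 11.60, 11.74 and 11.51 in Vehicle and 11.50, 11.46, 11.27 and 11.51 in MYCi975. Replicate 3 was the lowest MYCi975 library, and the groups met only at their replicates 4. The list median was -0.16 without MYCi975 replicate 3 and -0.26 without the libraries numbered 4, where all 24 genes were lower.

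Pgam1 (ENSMUSG00000011752.8), the phosphoglycerate mutase of glycolysis, had values of 14.02, 14.23, 14.14 and 14.08 in Vehicle and 13.78, 13.91, 13.40 and 13.80 in MYCi975. The groups did not overlap, and MYCi975 replicate 3 was the lowest. The difference was -0.39 (SE 0.12, unadjusted limma p 0.00437), and it was -0.29 without that library. Pdk1 (ENSMUSG00000006494.12), a kinase that inhibits pyruvate dehydrogenase, had values of 11.30, 11.50, 11.48 and 11.57 in Vehicle and 11.16, 11.14, 10.47 and 11.05 in MYCi975. Again the groups did not overlap and replicate 3 was far below the other MYCi975 libraries. Pdk1 differed by -0.51 (SE 0.19, p 0.0152), and by -0.35 without that library.

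Ldha (ENSMUSG00000063229.16), which makes lactate from pyruvate and carries the E-box printed above, had values of 14.39, 14.24, 14.32 and 14.17 in Vehicle and 14.08, 13.99, 13.72 and 14.03 in MYCi975. The groups were apart, by least between MYCi975 replicate 1 and Vehicle replicate 4. Ldha differed by -0.32 (SE 0.13, p 0.0249). Pkm, which encodes pyruvate kinase, had values of 15.64, 15.68, 15.65 and 15.52 in Vehicle and 15.42, 15.41, 15.15 and 15.46 in MYCi975. Pkm was lower in every MYCi975 library than in every Vehicle library (-0.26, SE 0.12, p 0.0455), and the difference was -0.19 without replicate 3. Further along the pathway, in genes named here after their values were seen, Pgk1 differed by -0.36 and Gapdh by -0.30, while the hexokinase gene Hk2 (0.02) and the glucose transporter gene Slc2a1 (-0.24, SE 0.30) did not differ by more than their SE. Slc16a1, a lactate transporter, had a difference of -0.30 (SE 0.17).

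The NRF2 and glutathione list was as low. Of 28 tested genes 27 were lower and 1 higher (Gpx4). At an unadjusted p under 0.05, 4 were lower (1.51% of all genes tested), and 3 had all MYCi975 libraries below Vehicle (0.706% of all genes tested). The mean of the list was 10.86, 10.90, 10.73 and 10.79 in Vehicle and 10.70, 10.59, 10.53 and 10.58 in MYCi975. Every MYCi975 library lay below every Vehicle library. The list median was -0.16 without MYCi975 replicate 3 and -0.25 without the libraries numbered 4.

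Gclc (ENSMUSG00000032350.10), the catalytic subunit of the enzyme that limits glutathione synthesis, had values of 9.82, 10.13, 10.04 and 9.82 in Vehicle and 9.52, 9.67, 9.66 and 9.51 in MYCi975. The groups did not overlap, and no library stood apart within its group. The difference was -0.36 (SE 0.11, unadjusted limma p 0.00438, adjusted p 0.999), and it was -0.39 without MYCi975 replicate 3. G6pdx (ENSMUSG00000031400.11), which makes NADPH in the pentose phosphate pathway, had values of 10.73, 10.95, 10.74 and 10.69 in Vehicle and 10.48, 10.53, 10.42 and 10.33 in MYCi975. These groups were apart too (-0.34, SE 0.15, p 0.0366).

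Srxn1, which repairs oxidised peroxiredoxins, had values of 11.62, 11.61, 11.64 and 11.41 in Vehicle and 11.40, 11.40, 11.05 and 11.11 in MYCi975, apart only just (-0.33, SE 0.16, p 0.0539). The reductase genes Txnrd1 (-0.26, p 0.0333) and Gsr (-0.27, p 0.0380) were lower with overlapping groups. Slc7a11, the cystine importer that supplies glutathione synthesis and is a member of 2 lists, had values of 9.91, 9.90, 9.74 and 9.003 in Vehicle and 9.54, 8.99, 9.17 and 8.78 in MYCi975. Vehicle replicate 4 was near the lowest MYCi975 libraries, and the groups overlapped (-0.52, SE 0.27). The gene of the regulator itself, Nfe2l2, was at -0.06 (SE 0.16).

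**Figure D3:**
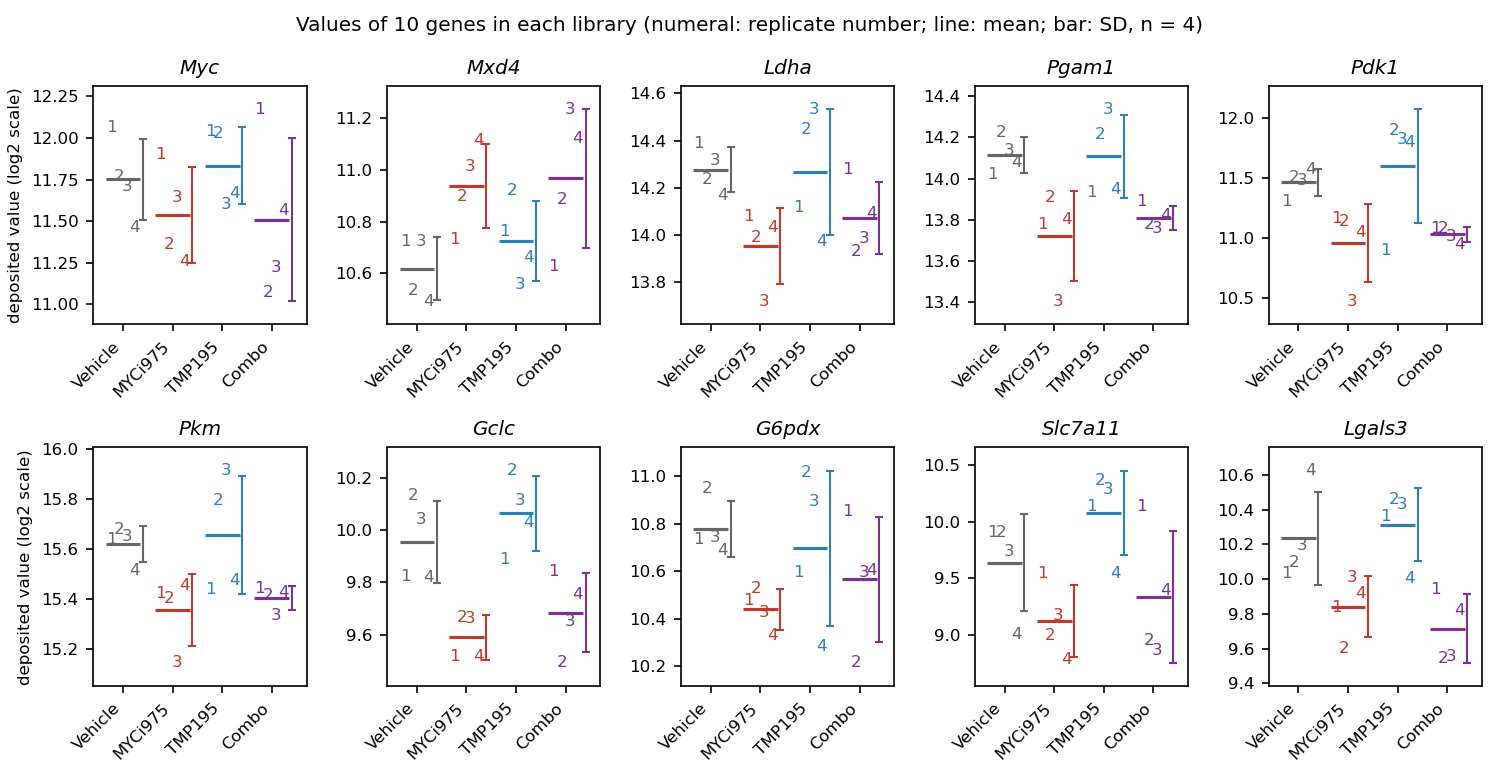
Numerals give the deposited value (log2 scale) of each library by its replicate number in the 4 groups, with the mean as a line and the SD as a bar (n = 4). MYCi975 libraries lie below all Vehicle libraries in Ldha, Pgam1, Pdk1, Pkm, Gclc, G6pdx and Lgals3, above them in Mxd4, and overlap them in Myc and Slc7a11.

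The integrated stress response and serine synthesis list was lower in all 30 members, with a median of -0.18. None of the 30 had groups that did not overlap, and 2 were lower at an unadjusted p under 0.05 (1.51% of all genes tested). Its list mean was nevertheless separated, with 10.003, 10.36, 10.05 and 10.08 in Vehicle and 9.89, 9.94, 9.84 and 9.98 in MYCi975. Vehicle replicate 2 was the highest of the 8, and without it the list median was -0.08, while it was -0.22 without the libraries numbered 4. Psat1, an enzyme of serine synthesis, had values of 11.33, 12.06, 11.59 and 12.23 in Vehicle and 11.26, 11.51, 11.18 and 11.59 in MYCi975. Vehicle replicates 2 and 4 were high, replicate 1 lay within the MYCi975 range, and the difference was -0.42 (SE 0.17, p 0.0221).

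Slc3a2, the heavy chain shared by several amino acid transporters, had values of 11.43, 11.77, 11.57 and 11.93 in Vehicle and 11.33, 11.34, 11.43 and 11.45 in MYCi975. Only Vehicle replicate 1 reached the MYCi975 range (-0.29, SE 0.12, p 0.0317). Atf4, the transcription factor of the programme, had values of 12.65, 12.70, 12.51 and 12.14 in Vehicle and 12.40, 12.35, 12.21 and 11.82 in MYCi975. In both groups replicate 4 was the lowest, and the difference was -0.30 (SE 0.16). Of the genes whose promoters are printed above, Slc1a4, a neutral amino acid transporter, differed by -0.35 (SE 0.17), Asns, asparagine synthetase, by -0.20 (SE 0.16) and Chac1, which degrades glutathione, by -0.21 (SE 0.19). The unfolded protein response, another branch of stress signalling, was even, with 12 of 20 genes higher and a median of 0.03 (-0.04 without MYCi975 replicate 4).

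All 25 cholesterol synthesis genes tested had lower means in MYCi975, and the list median was -0.22. The list mean was 10.46, 10.39, 10.07 and 10.63 in Vehicle and 10.34, 10.14, 10.21 and 10.02 in MYCi975. The highest and the lowest library of all 8 were the replicates numbered 4 of Vehicle and MYCi975, and without the libraries numbered 4 the median was -0.06. Without Vehicle replicate 3 alone it was -0.345. Hsd17b7, which acts late in the pathway, was the 1 member with separated groups, against 0.706% of all genes tested wholly below Vehicle. Hsd17b7 had values of 10.29, 10.13, 10.03 and 10.28 in Vehicle and 10.03, 9.90, 9.93 and 9.65 in MYCi975. The gap rested on 10.03 in both Vehicle replicate 3 and MYCi975 replicate 1, equal at this rounding (-0.30, SE 0.15). Fdps, which makes farnesyl diphosphate, was the 1 member at an unadjusted p under 0.05 (1.51% of all genes tested). Fdps differed by -0.49 (SE 0.23, p 0.0493), with 11.75 in Vehicle replicate 4 against 10.35 to 10.90 in the other Vehicle libraries. Of 15 fatty acid synthesis genes 12 were lower (median -0.12, and -0.065 without MYCi975 replicate 3), led by the desaturase genes Fads2 (-0.40, SE 0.19) and Scd1 (-0.25, SE 0.13).

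Cell division genes were lower by about as much. Of 40 mitosis genes 39 were lower (median -0.15) and of 39 DNA replication genes 34 were lower (median -0.14), with no member of either list separated. In mitosis Plk4, the kinase that starts centriole duplication, differed by -0.28 (SE 0.13, p 0.0449), and the chromosome motor gene Kif4 by -0.35 (SE 0.17). In replication Gins2, a subunit of the replicative helicase, differed by -0.25 (SE 0.14) and Mcm4, another subunit, by -0.24 (SE 0.14). Mki67, a marker of cycling cells named here after its value was seen, differed by -0.12 (SE 0.16). The list means overlapped: for mitosis, Vehicle spanned 10.58 to 11.01 and MYCi975 spanned 10.56 to 10.87. Without the libraries numbered 4 the medians were -0.10 for mitosis and -0.04 for replication, with 30 of 40 and 21 of 39 genes lower. Leaving out 1 library moved them between -0.255 and -0.096 for mitosis and between -0.209 and -0.022 for replication, lowest without Vehicle replicate 3 in both. Replication-dependent histone genes were lower in 39 of 60 cases (median -0.07). Targets of p53 were even, with 10 of 18 higher and a median of 0.00.

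Mitochondrial genes, which the title of the series points to, differed little as a class. Of 35 genes of respiratory complex I 21 were lower (median -0.03), of 39 genes of complexes II to V 29 were lower (median -0.08), and of 78 mitochondrial ribosomal protein genes 52 were lower (median -0.05). Without Vehicle replicate 4 these 3 medians were 0.02, -0.02 and -0.01. Protein import into mitochondria had 4 of 26 genes lower at an unadjusted p under 0.05 (1.51% of all genes tested) within a list median of -0.05. Timm17b, part of the inner membrane channel, had values of 7.45, 7.96, 7.14 and 7.69 in Vehicle and 6.93, 6.79, 6.66 and 7.44 in MYCi975. MYCi975 replicate 4 and Vehicle replicate 3 made the groups overlap (-0.60, SE 0.20, p 0.00792). Timm22, the channel for carrier proteins, had values of 8.01, 7.80, 7.87 and 8.19 in Vehicle and 6.86, 7.14, 7.63 and 7.997 in MYCi975, with replicate 4 of MYCi975 at the level of Vehicle (-0.56, SE 0.21, p 0.0160). Tomm40 (-0.24, SE 0.10) and Timm23 (-0.26, SE 0.12), the main channels of the outer and inner membrane, were the other 2. Genes of the mitochondrial DNA were higher in 8 of 13 cases (median 0.11), and lower in 11 of 13 without MYCi975 replicate 3 (median -0.08).

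Of 23 hypoxia genes 20 had lower means (list median -0.09), where 52.9% of all genes tested had. The 1 member at an unadjusted p under 0.05 (1.51% of all genes tested) was Pdk1, which is also in the glycolysis list. The median was -0.19 without the libraries numbered 4, -0.19 without MYCi975 replicate 4 alone and -0.02 without Vehicle replicate 3. Groups were separated in 2 of 23 members, Pdk1 and the mitophagy receptor gene Bnip3l, against 0.706% of all genes tested wholly below Vehicle. Bnip3l was at 12.84, 12.79, 12.85 and 12.91 in Vehicle and 12.69, 12.71, 12.57 and 12.68 in MYCi975. The separation was small and even across libraries (-0.18, SE 0.14). Car9, a carbonic anhydrase that is a sensitive reporter of hypoxia, had values of 7.09, 6.34, 7.18 and 6.69 in Vehicle and 6.98, 6.37, 6.93 and 7.22 in MYCi975. These ranges covered each other (0.05, SE 0.20).

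Interferon response genes had the highest median of the pathway lists. Of 44 genes 39 were higher and 5 lower, with a median of 0.20, and none had separated groups. The list mean was 8.95, 9.54, 8.69 and 9.73 in Vehicle and 9.07, 9.03, 10.14 and 9.57 in MYCi975. MYCi975 replicate 3 was the highest of the 8 libraries. Without it 27 of 44 genes were lower and the median was -0.03, and without the libraries numbered 4 the median was 0.35. Rsad2, the antiviral enzyme viperin, had values of 7.32, 7.73, 7.04 and 8.01 in Vehicle and 7.63, 7.87, 9.23 and 7.92 in MYCi975. Its difference of 0.64 (SE 0.29, p 0.0436) was 0.28 without replicate 3, which held the highest value.

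Zbp1, a sensor of left-handed nucleic acid that can trigger necroptosis, followed another pattern. It had values of 9.76, 9.69, 9.67 and 9.85 in Vehicle and 10.19, 10.12, 9.80 and 10.88 in MYCi975. Replicate 3 was the lowest MYCi975 library here, just within the Vehicle range, and replicate 4 the highest. The difference was 0.50 (SE 0.21, p 0.0298) and it was 0.65 without replicate 3. Antigen presentation by MHC class I was even (6 of 15 genes higher, median -0.03), and Cd274, which encodes the checkpoint ligand PD-L1, differed by 0.02 (SE 0.33).

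Neutrophil and fibroblast markers stood apart in MYCi975 replicate 3, and pan-leukocyte markers were highest there. Of 6 neutrophil markers that passed the filter 5 were higher (median 0.46), with list means of 6.93, 6.66, 6.56 and 7.19 in Vehicle and 6.79, 6.48, 8.46 and 7.28 in MYCi975. Ly6g, Retnlg and Trem1 of the same list were below the filter. S100a9, a neutrophil calcium-binding protein, had values of 7.15, 6.71, 6.45 and 6.997 in Vehicle and 7.36, 6.49, 10.31 and 7.29 in MYCi975. The difference of 1.03 (SE 0.59) came to 0.22 without replicate 3. The fibroblast and pericyte list was at 9.73 in that library against 10.67 to 11.13 in the other MYCi975 libraries and 10.41 to 10.82 in Vehicle. MYCi975 replicate 3 lay within the Vehicle range for macrophages and monocytes (6.48, 7 genes) and for dendritic cells and MHC class II (6.07, 9 genes). The same held for endothelial cells (6.94, 4 genes), red cells and platelets (6.22, 4 genes) and B and plasma cells (8.27, 1 gene). That library lay above the Vehicle range for T and NK cells (6.16, 2 genes) and for muscle, fat and skin (6.61, 3 genes). For lung epithelium (7.37, 2 genes) it did so only just. The highest Vehicle mean for T and NK cells was 6.08. For muscle, fat and skin MYCi975 replicate 4 was higher still (6.64). Pan-leukocyte markers had means of 6.65, 6.59, 6.71 and 6.999 in Vehicle and 6.63, 6.29, 7.38 and 6.89 in MYCi975. The part of these cells in the interferon, glycolysis and NRF2 values was not tested.

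**Figure D4:**
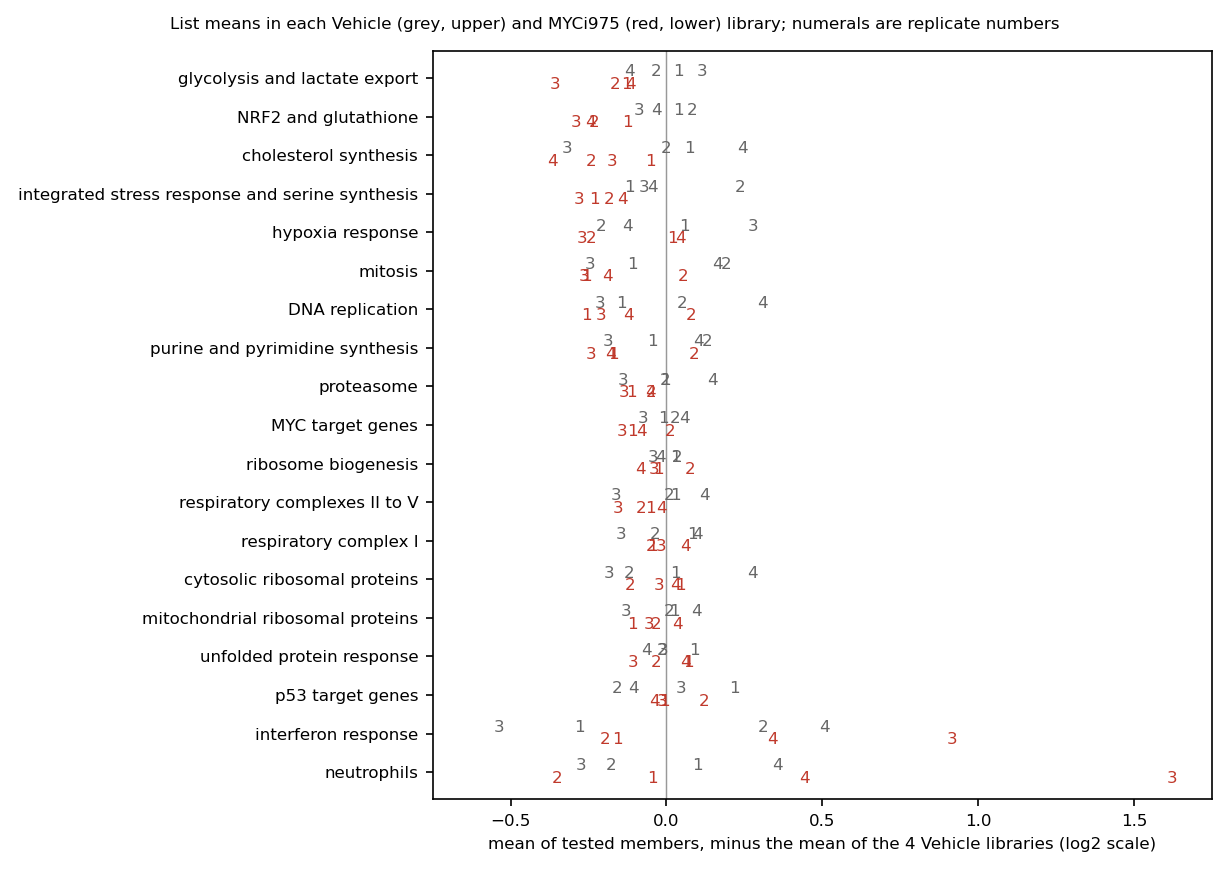
Numerals mark the replicate number of each Vehicle (grey, upper) and MYCi975 (red, lower) library at the mean of the tested list members minus the Vehicle average (log2 scale). MYCi975 replicate 3 lies far to the right for interferon genes and neutrophil markers, and every MYCi975 library lies left of Vehicle for the NRF2 and glutathione list.

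The same compound was also given on top of TMP195, and Combo minus TMP195 shares no library with MYCi975 minus Vehicle. In that contrast 837 genes had an unadjusted p under 0.05 (5.33%) and none was called by limma, nor was any in the test of the difference between the 2 contrasts (the interaction, 471 genes at an unadjusted p under 0.05). Of the 476 genes at that level in MYCi975 against Vehicle, 43 (9.03%) were at that level here too, which is 5.14% of the 837. Of the 43 genes, 37 differed in the same direction, 23 lower and 14 higher in both, and 6 in opposite directions. Of all 476 genes 306 had the same sign (64.3%), against 8245 of all genes tested (52.5%). Across all genes the 2 sets of differences had a Pearson r of 0.048, given as a description since genes are not independent.

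Gclc led the genes at that level in both contrasts, which were named for being so, and their likeness in the 2 contrasts is a description of that choice. It had values of 9.89, 10.23, 10.11 and 10.03 in TMP195 and 9.84, 9.49, 9.65 and 9.75 in Combo, where all Combo libraries lay below all TMP195 libraries. The difference was -0.38 (SE 0.11, unadjusted limma p 0.00318) beside -0.36 without TMP195, and it was -0.44 without TMP195 replicate 1. Pdk1 had values of 10.89, 11.90, 11.82 and 11.79 in TMP195 and 11.08, 11.08, 11.01 and 10.95 in Combo. TMP195 replicate 1 was the lowest of these 8 libraries, and the other 3 TMP195 libraries lay above all of Combo. Pdk1 differed by -0.57 (p 0.00742) and Pgam1 by -0.30 (p 0.0230). Without TMP195 replicate 1 these differences were -0.81 and -0.36.

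Lgals3, which encodes the lectin galectin-3, had values of 10.03, 10.09, 10.19 and 10.62 in Vehicle, 9.84, 9.60, 10.01 and 9.91 in MYCi975, 10.36, 10.46, 10.43 and 10.002 in TMP195 and 9.94, 9.54, 9.56 and 9.82 in Combo. The groups were apart in both contrasts (-0.39, p 0.0160, and -0.60, p 0.000836). Others lower in both were Il1rap, a subunit of the interleukin-1 receptor (-0.44 and -0.45), Gpcpd1, a phosphodiesterase of choline metabolism (-0.33 and -0.63), the kinesin gene Kif21b (-0.51 and -0.58) and the protease gene Adamts7 (-0.54 and -0.83). Higher in both were Ror1, a receptor for Wnt ligands (0.40 and 0.81), and Adamts3, a procollagen protease (0.54 and 0.60).

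The lists are set side by side in the 2 contrasts. Glycolysis had medians of -0.21 and -0.25, with 16 of 24 genes lower in both. The NRF2 and glutathione list had -0.22 and -0.16, with 24 of 28 genes lower in both, where 27.3% of all genes tested were. In the second contrast the list means of the groups overlapped. For glycolysis TMP195 spanned 11.47 to 11.89 and Combo 11.34 to 11.60, and for NRF2 they spanned 10.65 to 11.03 and 10.49 to 10.86. TMP195 replicates 2 and 3 were the highest in both lists. In Combo minus TMP195, 7 genes of each of these lists were lower at an unadjusted p under 0.05, against 446 of all genes (2.84%), among them Slc7a11 (-0.75, p 0.0132). Without TMP195 replicate 1 the second medians were -0.31 for glycolysis and -0.18 for NRF2, and without the libraries numbered 4 they were -0.32 and -0.30.

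Cholesterol synthesis had medians of -0.22 and 0.03, and DNA replication -0.14 and 0.02. Mitosis had -0.15 and 0.02, where the second was -0.03 without TMP195 replicate 1. MYC target genes had -0.08 and 0.02, but -0.06 and -0.04 without the libraries numbered 4. The integrated stress response had -0.18 and -0.06, and -0.22 and -0.12 without those libraries. No test of the difference was run on lists.

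Hypoxia genes had the lowest median of the pathway lists in the second contrast. The medians were -0.09 and -0.40, and 14 of 23 were lower at an unadjusted p under 0.05 in Combo minus TMP195 (2.84% of all genes) against 1 in MYCi975 minus Vehicle (1.51%). Without TMP195 replicate 1 the second median was -0.47 and 14 genes were again lower at that level (3.09% of all genes). Car9 had values of 7.75, 7.85, 7.52 and 7.88 in TMP195 and 6.72, 7.003, 6.46 and 6.92 in Combo. The TMP195 libraries were above all others, and the Combo libraries lay within the range of Vehicle. Car9 differed by -0.97 (p 0.000162) against 0.05 without TMP195. Leukocyte markers were lower in the same contrast: their list mean was 6.78 to 8.24 in TMP195 and 6.41 to 6.92 in Combo, and the median difference was -0.81, or -0.40 without TMP195 replicate 1. Their part in the second contrast was not tested.

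**Figure D5:**
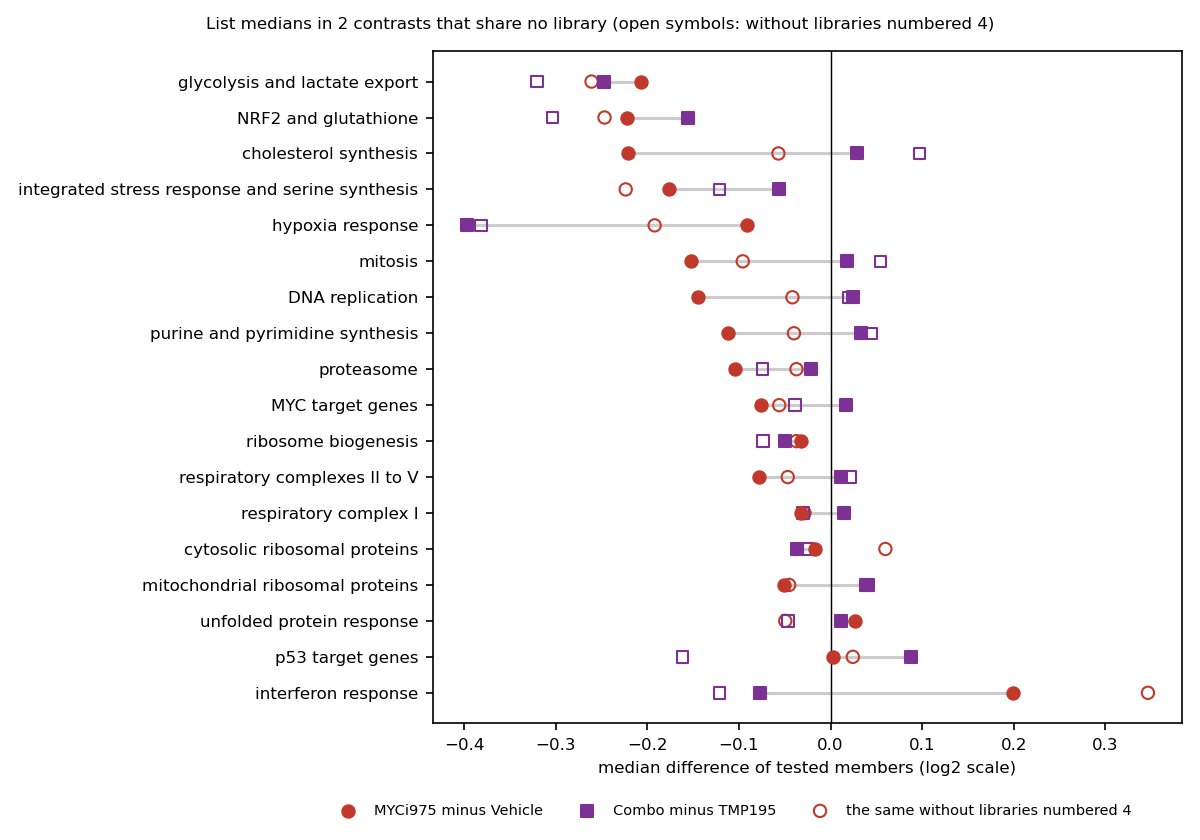
Circles give the median difference (log2 scale) of the tested members of 18 lists in MYCi975 minus Vehicle and squares that in Combo minus TMP195, and open symbols give both without the libraries numbered 4. Glycolysis and NRF2 lie left of 0 for both, and cholesterol synthesis, mitosis and DNA replication lie left of 0 for the circles alone, with or without the libraries numbered 4.

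The single genes with the smallest p-values lay mostly outside these lists. Ttll3 (ENSMUSG00000030276.20), a tubulin glycine ligase of cilia, had values of 8.03, 7.66, 8.10 and 7.81 in Vehicle and 8.34, 8.42, 8.66 and 8.76 in MYCi975. All 4 MYCi975 libraries were above Vehicle, by 0.65 on average (SE 0.16, unadjusted limma p 0.000953, adjusted p 0.999). Combo minus TMP195 was 0.08 in this gene. Ikzf2, the lymphoid transcription factor Helios, was higher by 0.81 (SE 0.24, p 0.00323) with overlapping groups. Acvr2b, a receptor for activins, had values of 7.85, 7.76, 7.93 and 7.61 in Vehicle and 8.18, 8.27, 8.23 and 8.03 in MYCi975. Its groups were apart (0.39, SE 0.12, p 0.00421), and Combo minus TMP195 was -0.23.

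Mme (ENSMUSG00000027820.13), the cell surface peptidase neprilysin, had the most negative difference among genes with separated groups. It had values of 7.01, 8.55, 6.25 and 8.03 in Vehicle and 6.02, 6.07, 5.67 and 6.19 in MYCi975. The Vehicle libraries were spread widely, above a narrow MYCi975 group (-1.47, SE 0.51, p 0.0103). Combo minus TMP195 was -0.01 for Mme. Next were Prkcb, a protein kinase C (-0.66, SE 0.23), Thsd4, a matrix protein gene (-0.60, SE 0.24), Mgst3, a microsomal glutathione transferase not among the NRF2 list (-0.56, SE 0.17), and Hspb6, a small heat shock protein (-0.54, SE 0.16).

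The largest positive differences with separated groups were in Rnaset2a, a ribonuclease gene with a near-identical copy (0.71, SE 0.23), Ttll3, Xylt1, which starts glycosaminoglycan chains (0.64, SE 0.22), Olfr1156 (0.57, SE 0.15) and Atp2b4, a calcium pump (0.55, SE 0.23). Xylt1 had values of 5.26, 5.41, 5.18 and 5.39 in Vehicle, 5.79, 6.17, 6.08 and 5.75 in MYCi975, 6.38, 5.88, 5.95 and 6.94 in TMP195 and 5.22, 6.01, 5.45 and 5.88 in Combo. Vehicle was the lowest group, and MYCi975 went with a higher value without TMP195 and a lower one with it (-0.65). AY512931, Pcdhga2 and Ap1s3 were also among the 10 smallest p-values, at 0.53, 0.44 and 0.53. Xylt1, AY512931 and Pcdhga2 lay within 2 units of the lowest value of the table in all 8 libraries, where the scale compresses differences.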

How the data were processed

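Column-purified RNA was made into stranded total RNA libraries, per the labels' protocols. The authors deposited variance-stabilised counts on a log2 scale, 1 column per library, for 24334 genes. Salmon is named without a version, and hg38 as the build although the gene identifiers are mouse, per the submitters' processing notes. The tool behind the variance stabilisation is not given in the sources used here. Every library shares the lowest value, 4.84. No total count per library is known, so no interval or limit that needs a count was computed. Reads of near-identical gene copies may have been divided between them.

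Symbols matched 23150 identifiers (95.13%). The main model, in limma 3.58.1 (R 4.3.3), gave each group of the 16 libraries its own mean, and variances were moderated by empirical Bayes along an intensity trend. Two-sided p-values were adjusted over the 15715 genes tested (Benjamini-Hochberg). The fit was tested on simulated data. The members and the 46 gene lists were chosen with earlier results of these data known, so lists are described by counts and medians without a test. Named genes were 12 chosen for their role, the 10 with the smallest p (predicted genes left out), up to 4 list members whose groups did not overlap (largest difference first) or else the 2 with the smallest p, the 10 with the smallest larger p in both contrasts with the same sign, and the 5 largest increases and decreases with separated groups. A few others, named for their role, were picked after their values were seen. Promoter sequences are from RefSeq (GRCm38.p6).

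Alternatives were no filter, a stricter filter (at least 2 above the lowest value in 8 libraries), moderation without a trend or robust, quantile normalisation, median centring, sample quality weights, the replicate number as a block, the leukocyte mean as a covariate, the 8 libraries alone, each of them left out in turn, all libraries numbered 4 left out, and, chosen after seeing the data, TMP195 replicate 1 left out of Combo minus TMP195.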

Additional observations from a re-analysis of the deposited data

Results flagged for a closer look

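Single libraries stood far from the other 3 of their group in 18 of 330 groups of 4 values examined, by Dixon's test at the 95% level, which chance alone gives in about 1 of 20.

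In MYCi975, replicate 3 was alone in Ap1s3 (7.64 against 7.01 to 7.07), Pdk1 (10.47 against 11.05 to 11.16) and Pkm (15.15 against 15.41 to 15.46), and replicate 4 in Dusp1, an immediate early phosphatase gene (10.25 against 9.48 to 9.61). MYCi975 replicate 2 was lowest in the mean of chemokines (8.10 against 8.46 to 8.53) and highest in that of red cells and platelets (6.54 against 6.17 to 6.23).

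In Vehicle, replicate 2 was highest in Cdc25a (9.95 against 9.71 to 9.74), Amd1 of polyamine synthesis (12.45 against 12.01 to 12.08) and Slc1a4 (10.01 against 9.63 to 9.66), and lowest in the muscle gene Tnnt3 (5.40 against 5.78 to 5.85). Vehicle replicate 4 was lowest in Max (10.40 against 10.69 to 10.72), Srxn1 (11.41 against 11.61 to 11.64) and the mean of lung epithelium markers (7.07 against 7.34 to 7.35), and highest in the chemokine gene Ccl6 (6.62 against 5.77 to 5.84) and the ribosomal protein gene Rpl35 (13.92 against 13.14 to 13.23). Vehicle replicate 3 was highest in Twist2, a mesenchymal transcription factor (9.44 against 9.24 to 9.26), and Ier3, an immediate early gene (12.01 against 11.61 to 11.68). Vehicle replicate 1 was highest in Ror1 (6.68 against 6.07 to 6.08).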

How the results depend on the processing

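No gene was called under any alternative except Gm15801, a predicted gene named after its value was seen (1.77, limma adjusted p 0.0431), the 1 gene called without MYCi975 replicate 2, and the count was 0 with any other of the 8 libraries left out. Without a filter 478 genes were higher and 410 lower at an unadjusted p under 0.05, and 244 and 197 lay wholly above and below; the stricter filter gave 116 higher and 58 wholly above, from fewer genes tested. Without the libraries numbered 4, 358 were higher and 618 and 636 lay wholly above and below, from 3 libraries against 3. Leaving out 1 library gave 157 to 391 higher (lowest without MYCi975 replicate 3, highest without replicate 2), 132 to 474 lower (the same libraries), 202 to 390 wholly above and 198 to 448 wholly below. Groups of fewer libraries lie apart more often where the group makes no difference. Counts of separated genes with libraries left out therefore do not compare with the 124 and 111 of 4 against 4. List medians of glycolysis ran from -0.25 to -0.154, of the NRF2 and glutathione list from -0.263 to -0.161 and of the interferon response from -0.026 to 0.362.

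Of 2233 values of 119 named genes under alternatives, 2185 kept their direction and 48, in 16 genes, turned, all uncalled; the cause was not tested. Quantile normalisation gave Mnt 0.033, Ncl 0.005 and Ager -0.010, median centring Mnt 0.007 and Cd8b1 0.004, quality weights Ptprc 0.021, Cd8b1 0.009 and Ager -0.004, the leukocyte covariate Cd274 -0.030, and leaving out the libraries numbered 4 Cdk4 -0.060, Ptprc 0.105, Cd8b1 0.075, Pax5 0.108 and Col3a1 -0.017. Leaving out 1 library, ranges were -0.05 to 0.038 for Mnt, -0.089 to 0.185 for Cdk4, -0.124 to 0.164 for Cd274, -0.242 to 0.081 for Cdkn1a, -0.179 to 0.036 for Mxi1, -0.223 to 0.069 for Ncl, -0.392 to 0.332 for Ptprc, -0.124 to 0.004 for Max, -0.493 to 0.022 for Clu, -0.022 to 0.467 for H2-T23, 0 to 0.397 for mt-Nd4, -0.202 to 0.02 for Bak1, -0.12 to 0.083 for Cd8b1, -0.17 to 0.211 for Pax5 and -0.051 to 0.093 for Ager.

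With the replicate block 0 genes were called, 274 were higher and 347 lower at an unadjusted p under 0.05. Same-numbered MYCi975 and Vehicle libraries had deviations correlated at 0.334, 0.244, 0.0288 and 0.380, and since the third was not above 0.1 the numbers were not taken as pairs. The labels do not say what the numbers stand for, although scores on the first principal component rose with them in every group. Any spread that goes with the number is therefore left in the SEs and p-values of the main model. Of the 8 libraries 7 correlated best with their own number; MYCi975 replicate 3 did so with Vehicle replicate 4 (0.0302). With the block Myc differed by -0.21 (limma p 0.176, adjusted p 0.948) and Atf4 by -0.30 (p 0.00992, adjusted p 0.948). In Combo minus TMP195, 837 genes were at an unadjusted p under 0.05, 1005 with the block and 874 without TMP195 replicate 1, an alternative chosen after seeing the data. The unknown depth limits weakly expressed genes most.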
